A study of Mus musculus with 39 samples.

Results

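Genes of the cellular RNA decay machinery were followed in mouse N2a cells that had received RfxCas13d and a crRNA. They comprise 45 genes taken by symbol from the known decapping factors, 5′-3′ exonucleases, deadenylases, exosome subunits and factors of nonsense-mediated decay (NMD). The list was compiled by gene name and function, without a cutoff on a measured value. All 45 were listed among the 25239 genes of the table of wild-type (WT) cells and the 25241 entries of the table of a tdTomato line. In both tables all 45 passed the filter on low values, a mean of at least 1 FPKM (fragments scaled to transcript length and to the counted total of the library).

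Decay of a cytoplasmic mRNA usually begins with shortening of its poly(A) tail, by the PAN2-PAN3 and CCR4-NOT deadenylases. The body of the mRNA is then degraded from its 5′ end, after the decapping enzyme DCP2 has removed the cap and XRN1 has access, or from its 3′ end by the RNA exosome. NMD removes mRNAs on which translation ends prematurely: the kinase SMG1 phosphorylates the helicase UPF1, which then recruits the endonuclease SMG6 and the adaptor SMG5. RfxCas13d itself is an RNA-guided ribonuclease, and these pathways handle the broken RNA that ribonucleases leave.

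N2a is a mouse neuroblastoma line. Cells were transfected with plasmids encoding RfxCas13d and a crRNA, the guide that directs it to its target RNA, and RNA was collected 48 h later. In WT N2a the crRNAs were Sik3 crRNA 8 and 1, which target the short Sik3 transcript, Map2 crRNA 3 and 1, Mapt crRNA 6 and 4, and a pair against Rbfox3, crRNA 3 and crRNA 5. The control was a non-targeting (NT) crRNA given with RfxCas13d, so that no group lacked the nuclease. N2a cells stably expressing tdTomato received tdTomato crRNA 7, tdTomato crRNA 4 or the NT crRNA. By the study's methods such stable lines were made with lentivirus and cloned by limiting dilution, and the tdTomato line thus stands for 1 clone. Each of the 13 groups held 3 libraries. The names of the 6 NT libraries of WT cells begin with WT or N, read here as 2 experiment sets, which the labels do not name. The name of NT replicate 6 begins with WT but has the library series code (LDL) of replicates 3, 4 and 5. NT replicates 1, 2 and 6 (the WT set) served as the control of 7 crRNAs and NT replicates 3, 4 and 5 (the N set) as that of Rbfox3 crRNA 5. The labels do not say whether replicates were separate cultures, and p-values measure only the spread between these libraries, which may be technical.

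Read totals recovered from the steps of the FPKM values were 10405700 to 16874726 per WT library and 2199727 to 4299987 per library of the tdTomato line. Counts of the 45 genes ran between 54 and 9301 reads per WT library and between 21 and 2622 in the tdTomato line. Of 12 sympathoadrenal markers, which the neuroblastoma line should express, 10 had a median of at least 1 FPKM in each table. Over WT libraries their summed level was 928 to 1322 FPKM. The highest median of a single marker was 556 FPKM, and 1 marker had a median of 0. For 12 markers of leukocytes, endothelium, fibroblasts, glia and epithelium the sum was 7.88 to 11.04 FPKM. Of these, 2 had a median of at least 1 FPKM, the highest at 5.79 FPKM, and 4 had a median of 0. Over tdTomato libraries the sums were 587 to 1013 FPKM and 9.57 to 17.7 FPKM, and the highest medians 476 and 7.11 FPKM. There 3 markers of other cell types had a median of at least 1 FPKM. Medians of 0 were found for 2 sympathoadrenal and 5 other markers. The mean level of the targeted gene was 15.5% and 27.3% of NT under Sik3 crRNA 8 and 1, 11.9% and 25.4% under Map2 crRNA 3 and 1, 23.5% and 50.7% under Mapt crRNA 6 and 4, and 14.6% and 16.4% under tdTomato crRNA 7 and 4. Rbfox3 was at 0 to 0.065 FPKM in the NT libraries of WT cells, too low to check its crRNAs.

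The spacers of the crRNAs used in WT cells are printed, followed by their fewest mismatches to transcripts of the 45 genes. Each is given 5′ to 3′ as the study lists it (22 bases), and capitals mark the 17 bases that the overlapping Mapt spacers share.
Sik3 crRNA 8: gtcgctctgtgaatcaggcatc
Sik3 crRNA 1: caagcactgccaggtgccacat
Map2 crRNA 3: gagcattgtcaagtgagccaac
Map2 crRNA 1: actctcaattttcacacgtcca
Mapt crRNA 6: ATAAAAGAAAAGGCAGAggtcc
Mapt crRNA 4: cttagATAAAAGAAAAGGCAGA
Rbfox3 crRNA 3: gcctccataaatctcagcacca
Rbfox3 crRNA 5: aaatccatcctgatacacgacc
NT crRNA: tcaccagaagcgtaccatactc
Each targeting spacer was the full reverse complement of a stretch of its target transcript, with 0 mismatches. Against 311 annotated transcripts of the 45 genes, the best ungapped pairing left 5 mismatches for Rbfox3 crRNA 3 (to Smg1) and 6 or 7 for every other spacer, the NT spacer included with 7. Against Smg6, which changed under every targeting crRNA of WT cells, the spacers had 7 to 9 mismatches. Pairing with gaps or G-U pairs was not searched, and the part of pairing in the members' changes was not tested.

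Over the 30 WT libraries, with targeting and NT crRNAs together, the median level of a member ran from 1.505 to 46.7 FPKM among the 9 decapping factors, and it was 7.28 FPKM for Xrn1 and 54.0 FPKM for Xrn2, the cytoplasmic and the nuclear 5′-3′ exonuclease. The 10 subunits of CCR4-NOT lay between 7.03 and 67.6 FPKM and the 8 subunits of the exosome core between 19.6 and 93.5 FPKM. Medians were 17.7 to 43.8 FPKM for the 4 UPF genes and 8.85 to 38.3 FPKM for the 5 SMG genes. Exosc2, a cap subunit of the exosome, had the highest median level per length and Dcp1b, a DCP2 activator, the lowest. In NT libraries alone Exosc2 averaged 156 FPKM in the N set and 113 FPKM in the WT set.

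The first comparison asks how many of these genes differed in level between a targeting crRNA and NT. The difference was tested with limma on log2(FPKM + 0.5), over all genes of a table, and the threshold for a rise or a fall was an adjusted p of 0.05. In the mean over the 7 crRNAs of the WT set, 6 of the 45 genes rose and 14 fell against NT, while 25 did not pass the test. These were 44.4% of the members, beside 50% of the 11554 genes tested (28.2% higher, 21.7% lower). The median log2 change was 0.00 over the members and 0.03 over all genes, and the median size of a change was 0.10 and 0.16. In bulk RNA, fewer cells that express a gene and less of its RNA per cell cannot be told apart.

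The crRNAs differed in how many of the genes they touched. Map2 crRNA 1 had the most, with 8 higher and 17 lower, or 55.6% of members beside 49.7% of all genes (25.8% higher, 23.9% lower). Map2 crRNA 3 had 6 higher and 9 lower, or 33.3% beside 33.3% (19.8% higher, 13.4% lower). Sik3 crRNA 8 had 6 higher and 13 lower, or 42.2% beside 42.9% (21.7% higher, 21.2% lower), and Sik3 crRNA 1 had 7 and 14, or 46.7% beside 44.7% (23.6% higher, 21.1% lower). Under Mapt crRNA 6 there were 5 and 9, or 31.1% beside 36.8% (22.2% higher, 14.6% lower), and under Mapt crRNA 4 there were 5 and 12, or 37.8% beside 38.6% (21.8% higher, 16.7% lower). Rbfox3 crRNA 3 had 5 and 8, or 28.9% beside 32.5% (19.1% higher, 13.4% lower). These 7 comparisons share the NT libraries of the WT set. Rbfox3 crRNA 5, read against the N set, had 1 higher and 10 lower, or 24.4% beside 25.7% (12.6% higher, 13.1% lower). In the tdTomato line, 12 genes were lower under crRNA 7, or 26.7% beside 18% (6.72% higher, 11.3% lower), and 5 under crRNA 4, or 11.1% beside 10.7% (6.46% higher, 4.28% lower). None was higher under either crRNA in limma's test, where 0 and 3 genes were higher at an unadjusted p under 0.05. The largest change of a called member in any comparison was that of Smg6 under Map2 crRNA 3, −0.81 on the log2 scale. A share of members close to the share of all genes, as in most of these comparisons, is no result about the members. Rescaling the FPKM by a median ratio turned the split into 4 higher and 14 lower for Map2 crRNA 3 and into 3 higher and 15 lower for Mapt crRNA 4, and left 4 lower in place of 12 for tdTomato crRNA 7. Here and below, the share of all genes called after rescaling is not given. Member counts after rescaling are therefore no result about the members.

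**Figure D1:**
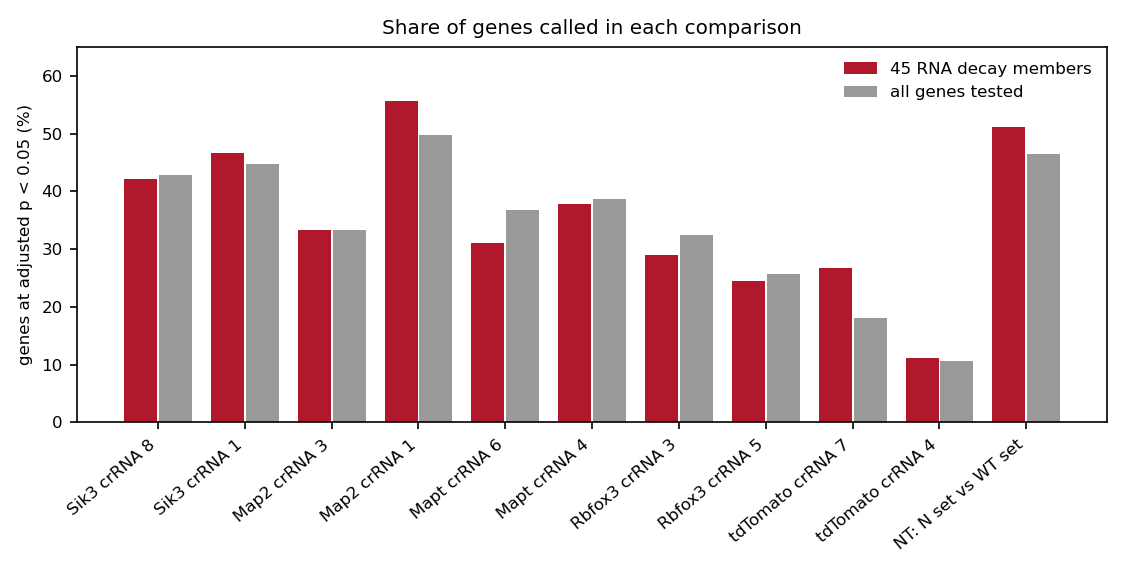
Percent of genes called at an adjusted p under 0.05 (limma) for each crRNA against NT and for the NT libraries of the N set against the WT set, with the 45 RNA decay genes beside all genes tested. The members' share lies close to that of all genes under most crRNAs, and is 26.7% beside 18% under tdTomato crRNA 7, where 4 of the 12 members' calls were left after rescaling.

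The plot of called shares gives these counts, and the heat map of the 45 genes shows which of them moved. Smg6, Smg5, Upf3a, Exosc10 and Xrn2 stand out as rows of falls. Smg6 and Upf3a fell under all 8 crRNAs of WT cells, Smg5 under these 8 and tdTomato crRNA 7, Exosc10 under 7 of them and tdTomato crRNA 7, and Xrn2 under 7 of them and both tdTomato crRNAs. Since 7 of the 8 share NT libraries, these tallies do not count independent repeats. Dcp2, Dcp1a, Dcp1b, Xrn1, Cnot3, Exosc1, Exosc3, Exosc8 and Smg1 passed the test in none of the 10 crRNA comparisons.

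**Figure D2:**
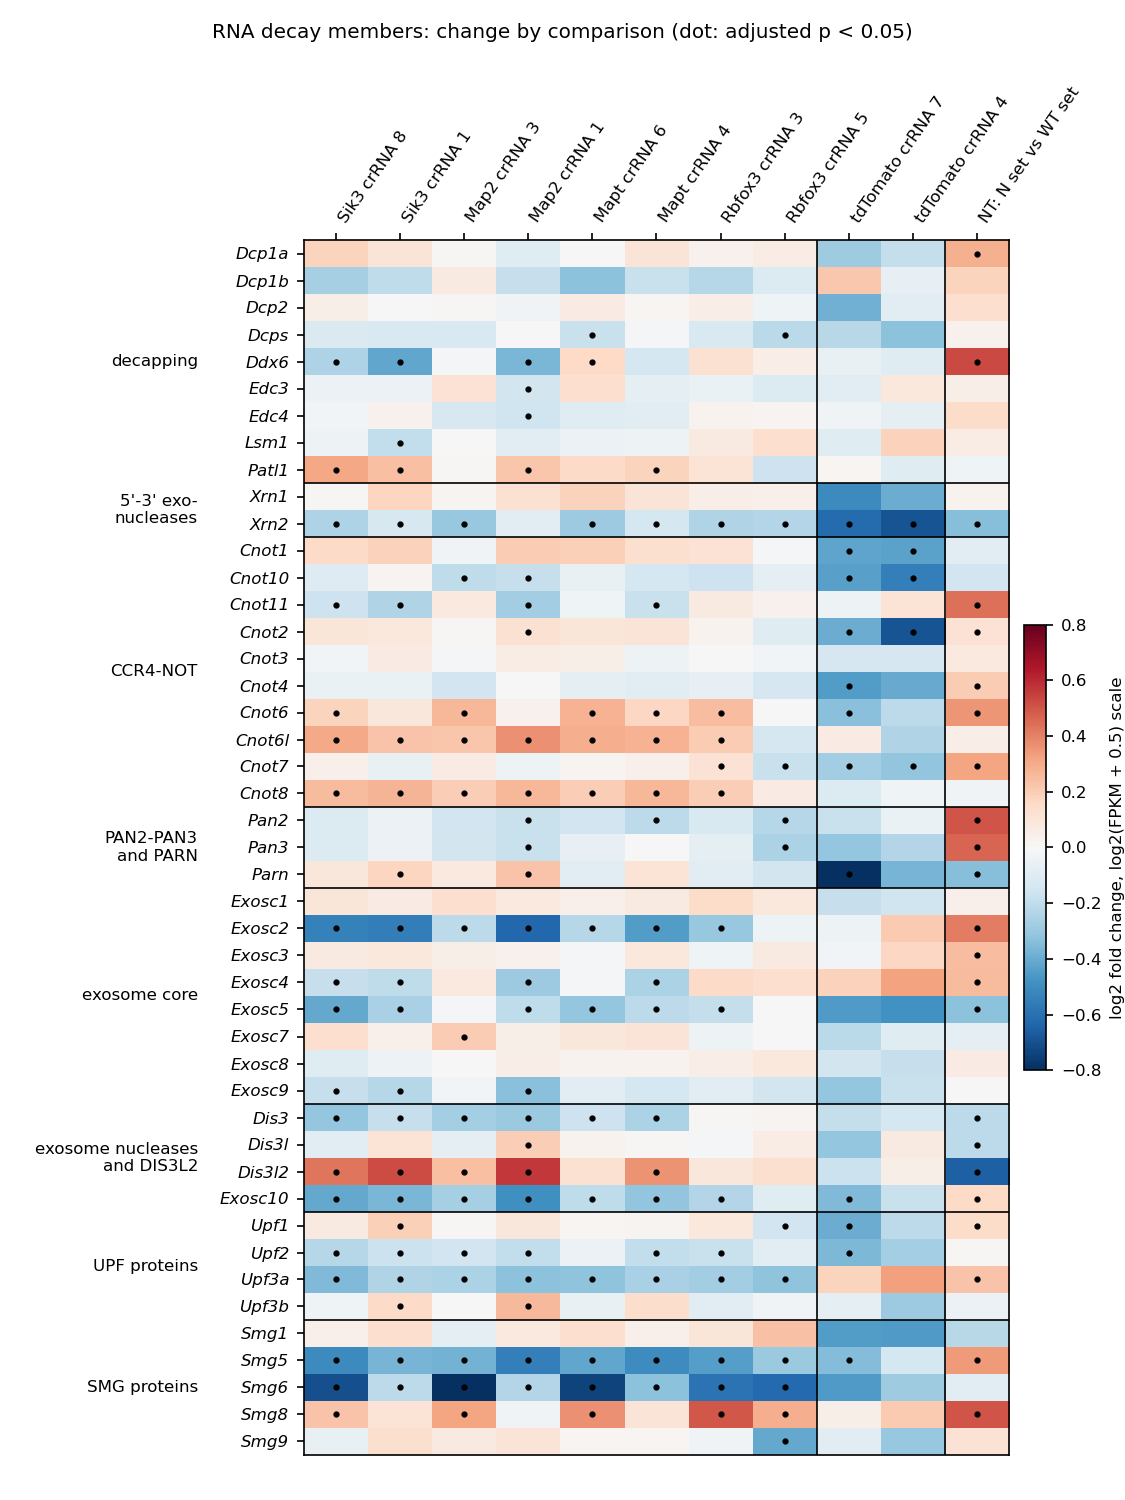
Log2 change against NT of the 45 RNA decay genes (vertical, grouped by role) under each of the 10 crRNAs (horizontal), and between the NT libraries of the N set and the WT set in the last column, with the cells that passed the test marked. Smg6, Smg5 and Upf3a are lower under all 8 crRNAs of WT cells, and no member is called higher under a tdTomato crRNA.

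Smg6 and Smg5 had the largest falls of the 45 genes in the mean of the 7 crRNAs. In that mean, 1 of 5 SMG genes rose and 2 fell (median 0.04), and 0 of 4 UPF genes rose, also at an unadjusted p under 0.05 in limma, and 2 fell (median −0.06). The shares over all genes tested were 28.2% higher and 21.7% lower. Smg6, the endonuclease that cuts NMD substrates, had 9.05 FPKM in the lowest, 10.6 in the median and 14.4 in the highest of the 21 libraries with a targeting crRNA, against 16.6, 16.3 and 16.8 FPKM in the NT libraries of the WT set. Every targeting library was below every NT library. The log2 change was −0.52 (SE 0.036, adjusted p = 7.47e-11 by limma), and it was −0.52 within each of the library series LDK and LDL. The LDL value rests on 1 NT library. Smg6 lies on mm10 chromosome 11 from 74925823 to 75164448 on the plus strand. Srr, whose exons overlap it, averaged 2.13 FPKM against 12.4 FPKM for Smg6, and the strand setting of the counting is not given in the sources used here.

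Smg5, the adaptor that binds phosphorylated UPF1 (chromosome 3, 88336260 to 88362338), had 33.9 FPKM in the lowest, 37.0 in the median and 42.9 in the highest targeting library, against 47.7, 52.6 and 53.4 FPKM in the NT libraries. Here too the groups did not overlap, and the log2 change was −0.45 (SE 0.034, adjusted p = 2.04e-10). Upf3a, a paralog of Upf3b that links UPF2 to the exon junction complex (chromosome 8, 13785615 to 13799193), had 39.8, 42.9 and 47.5 FPKM, against 53.7, 50.3 and 54.7 FPKM, and fell by 0.29 on the log2 scale (SE 0.040, adjusted p = 2.68e-06). Again all targeting libraries were lower. Upf3b itself did not pass the test (0.05, adjusted p = 0.346), and neither did Upf1 (0.07, adjusted p = 0.168). Upf2, which bridges UPF1 and UPF3 proteins, fell by 0.17 (adjusted p = 8.43e-04).

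Smg8, which with SMG9 restrains the SMG1 kinase, went the other way. It had 6.95 FPKM in the lowest, 8.59 in the median and 10.9 in the highest of the 21 targeting libraries, against 7.71, 7.56 and 6.57 FPKM in the NT libraries of the WT set. The ranges overlapped, and the log2 change was 0.23 (SE 0.053, adjusted p = 0.00105). With all 6 NT libraries of WT cells as the control, the change was 0.00 (adjusted p = 0.956), and the N set itself had 9.43, 10.5 and 10.6 FPKM. Smg1 and Smg9 did not pass the test in the mean of the 7 crRNAs (0.06, adjusted p = 0.588, and 0.04, adjusted p = 0.562).

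**Figure D3:**
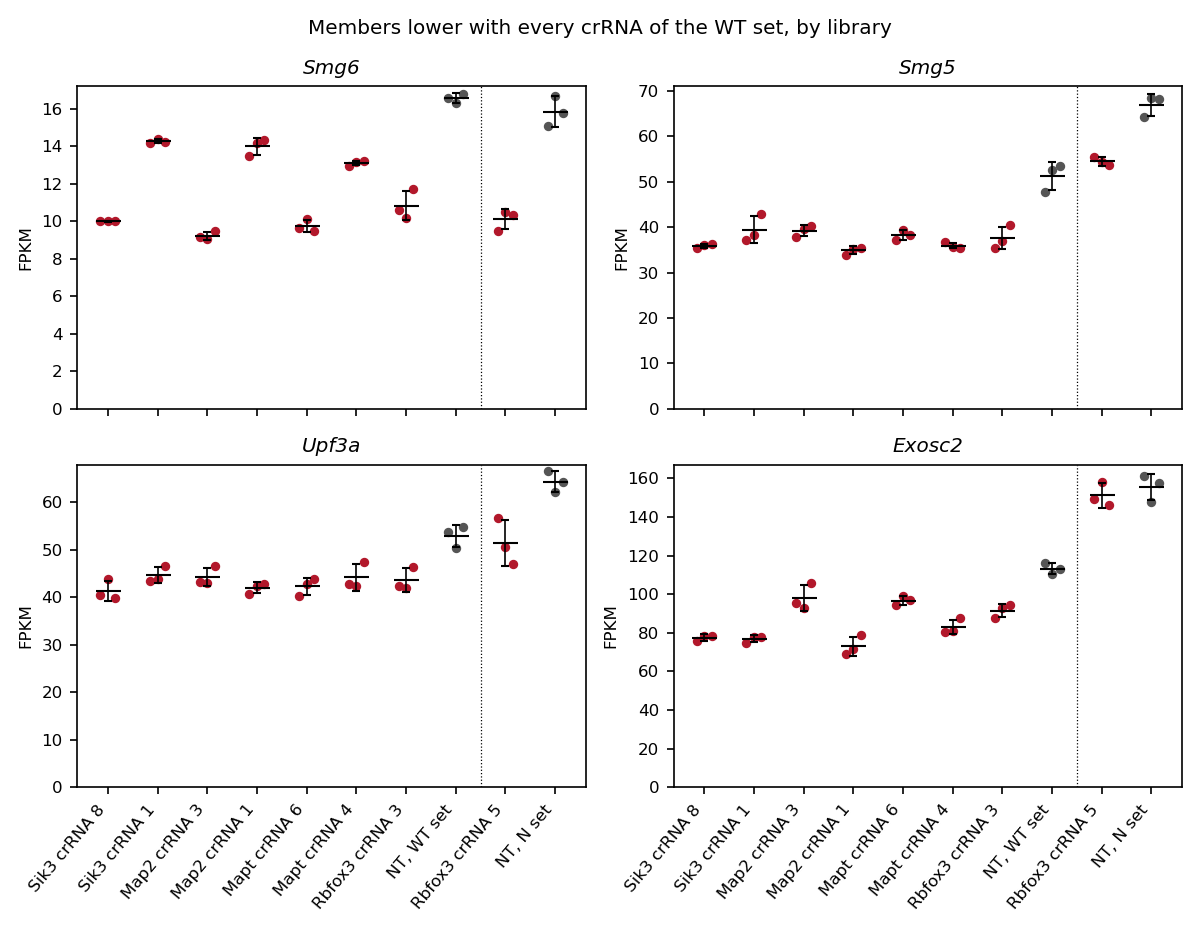
FPKM of Smg6, Smg5, Upf3a and Exosc2 in each WT library (points) by group, with bars for mean ± SD (n = 3) and a dotted line between the WT set and the N set. Smg6, Smg5 and Upf3a are lower in every targeting group than in its own NT libraries, while levels of NT libraries differ between the sets.

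The deadenylases moved in both directions. Of the 10 CCR4-NOT genes, 3 rose and 2 fell in the mean of the 7 crRNAs (median 0.05), beside 28.2% of all genes higher and 21.7% lower. The 3 that rose are catalytic subunits. Cnot6l, a CCR4-type nuclease (chromosome 5, 96070333 to 96164171, minus strand), had 11.6 FPKM in the lowest, 13.9 in the median and 15.7 in the highest targeting library, against 11.77, 11.07 and 11.02 FPKM in the NT libraries, and rose by 0.27 (SE 0.040, adjusted p = 6.61e-06). Cnot8, a CAF1-type nuclease (chromosome 11, 58104153 to 58118594), had 26.3, 28.7 and 31.8 FPKM, against 25.4, 23.7 and 23.2 FPKM, and rose by 0.24 (SE 0.037, adjusted p = 1.11e-05). Cnot6l overlapped between the groups by its lowest targeting library, and Cnot8 did not overlap. Cnot6, the paralog of Cnot6l, had 45.1, 51.4 and 60.5 FPKM, against 45.6, 47.6 and 42.6 FPKM (0.18, SE 0.045, adjusted p = 0.00181). It overlapped more, and with all 6 NT libraries its change was 0.02 (adjusted p = 0.733).

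Cnot7, the paralog of Cnot8, did not pass the test in that mean (0.03, adjusted p = 0.523), and neither did the scaffold Cnot1 (0.13, adjusted p = 0.237), Cnot2 (0.08, adjusted p = 0.0522), Cnot3 or the ubiquitin ligase Cnot4. Cnot10 and Cnot11, which form a module on the scaffold's amino-terminal side, fell by 0.12 (adjusted p = 0.0483) and 0.11 (adjusted p = 0.0127). Of the other deadenylases, Pan2, the catalytic subunit of PAN2-PAN3, fell by 0.14 (adjusted p = 0.0196), and with all 6 NT libraries Pan2 was at −0.36 and Cnot11 at −0.30, while Cnot10 no longer passed (−0.05, adjusted p = 0.299). With the WT set alone, the adaptor Pan3 (−0.09) and the poly(A) ribonuclease Parn (0.07) did not pass the test.

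Of the 9 decapping genes, Patl1 rose and Ddx6 fell in the mean of the 7 crRNAs (median −0.05), in which 50% of all genes were called. Patl1, a scaffold between the deadenylation and decapping machineries, had 22.7 FPKM in the lowest, 29.3 in the median and 34.3 in the highest targeting library, against 25.5, 28.04 and 24.5 FPKM in the NT libraries. With the groups overlapping, its log2 change was 0.17 (SE 0.051, adjusted p = 0.00733), and it no longer passed without NT replicate 1 (0.14, adjusted p = 0.0828). Ddx6, a helicase that activates decapping and represses translation, fell by 0.13 (adjusted p = 0.0293), or by 0.36 with all 6 NT libraries. The catalytic Dcp2 (0.02), the scavenger enzyme Dcps (−0.10, adjusted p = 0.0743), Edc3, Edc4, Lsm1, Dcp1a and Dcp1b did not pass the test.

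Of the 5′-3′ exonucleases, Xrn2, which degrades RNA in the nucleus, had 48.8 FPKM in the lowest, 54.6 in the median and 61.9 in the highest targeting library, against 64.1, 64.2 and 61.8 FPKM in the NT libraries. Its ranges met at their edge, and the log2 change was −0.21 (SE 0.030, adjusted p = 5.00e-06). In the N set the NT libraries had 48.0, 50.1 and 49.9 FPKM of Xrn2. The first lay just below the lowest targeting library of the WT set, and the others lay near the low end of the targeting range. With all 6 NT libraries as the control, Xrn2 did not pass the test (−0.05, adjusted p = 0.326). Xrn1 did not pass the test (0.09, adjusted p = 0.317).

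In the exosome, 3 of 8 core genes fell and none rose in the mean of the 7 crRNAs in limma's test (median −0.05), and none was higher at an unadjusted p under 0.05 either. Of all genes tested, 28.2% were higher and 21.7% lower in that mean. Exosc2, a cap subunit that binds RNA (chromosome 2, 31670715 to 31681349), had 69.2 FPKM in the lowest, 81.1 in the median and 106 in the highest targeting library, against 116, 111 and 113 FPKM in the NT libraries of the WT set. It did not overlap between the groups and fell by 0.42 (SE 0.032, adjusted p = 3.58e-10). Exosc5, a ring subunit, had 16.2, 19.7 and 25.1 FPKM, against 24.6, 22.0 and 24.0 FPKM, overlapping (−0.23, SE 0.055, adjusted p = 0.00146), and its change was −0.08 (adjusted p = 0.222) with all 6 NT libraries. Exosc9 fell by 0.16 (adjusted p = 0.0110), where reads of Ccna2, whose exons overlap it and which averaged 66.6 FPKM, could not be told apart. Exosc1, Exosc3, Exosc4, Exosc7 and Exosc8 did not pass the test.

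Of the exosome nucleases, Exosc10, the nuclear 3′-5′ exonuclease (chromosome 4, 148558429 to 148582401), had 30.7 FPKM in the lowest, 35.8 in the median and 39.9 in the highest targeting library, against 44.6, 44.7 and 44.8 FPKM in the NT libraries. Every targeting library was lower, and the log2 change was −0.33 (SE 0.032, adjusted p = 1.71e-08). Dis3, the catalytic subunit of the nuclear exosome, fell by 0.21 (SE 0.030, adjusted p = 3.72e-06), or by 0.12 with all 6 NT libraries, and its cytoplasmic paralog Dis3l did not pass the test (0.03, adjusted p = 0.731). Dis3l2, which works apart from the exosome on uridylated RNA (chromosome 1, 86703808 to 87050095), had 6.25, 8.34 and 10.2 FPKM, against 6.01, 6.73 and 6.08 FPKM. It had the largest rise among the members, 0.33 (SE 0.070, adjusted p = 3.87e-04), although its ranges overlapped. With all 6 NT libraries its change was 0.62, as Dis3l2 was lower in NT libraries of the N set.

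The second comparison sets crRNAs to the same target against each other, in 4 pairs. Within each pair the labels give the same target, cell line and time and a different crRNA. They do not say whether the cultures were shared or transfected equally well. Smg6 was lower under Sik3 crRNA 8 than under Sik3 crRNA 1, with 9.98, 9.99 and 10.03 FPKM against 14.2, 14.4 and 14.2 FPKM. Under Map2 crRNA 3 it had 9.15, 9.05 and 9.45 FPKM, against 13.5, 14.2 and 14.3 FPKM under Map2 crRNA 1. Under Mapt crRNA 6 it had 9.61, 10.1 and 9.49 FPKM, against 13.0, 13.1 and 13.2 FPKM under Mapt crRNA 4, whose spacer shares 17 bases with it. The libraries of a pair did not overlap in any of these.

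The Smg6 difference was −0.49 for the Sik3 pair (95% interval −0.59 to −0.39, adjusted p = 2.44e-06), −0.58 for the Map2 pair (−0.68 to −0.48, adjusted p = 3.09e-09) and −0.41 for the Mapt pair (−0.51 to −0.31, adjusted p = 1.34e-05). Within the LDK and LDL series it was −0.49 and −0.49, −0.58 and −0.57, and −0.39 and −0.46. Each LDL value sets 1 library against 1 library. In each of these pairs the crRNA with less Smg6 also left less of its target. The order did not hold throughout across targets. Mapt crRNA 4 left 50.7% of its target and Sik3 crRNA 1 left 27.3%, yet Smg6 was lower under Mapt crRNA 4. The part of target knockdown in the level of Smg6 was not tested. Rbfox3 crRNA 3 had 10.6, 10.2 and 11.7 FPKM of Smg6. For the tdTomato pair the difference was −0.17 (95% interval −0.53 to 0.20, adjusted p = 0.701), with 6.56, 9.29 and 8.57 FPKM under crRNA 7 and 8.33, 11.3 and 8.00 FPKM under crRNA 4.

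**Figure D4:**
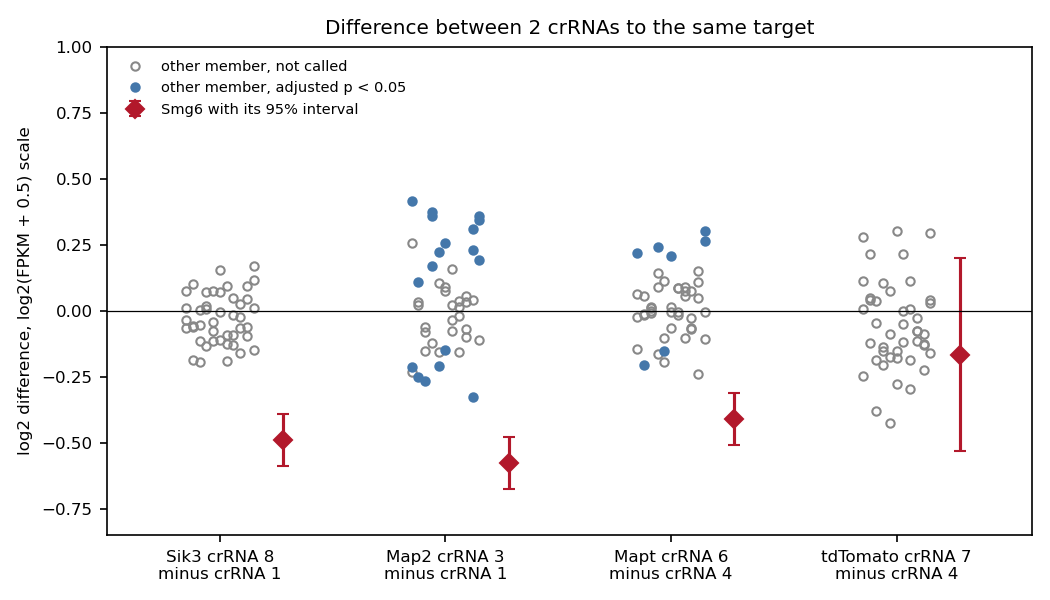
Log2 difference of each of the 45 genes between paired crRNAs (Sik3 8 minus 1, Map2 3 minus 1, Mapt 6 minus 4, tdTomato 7 minus 4), with called genes marked. Smg6 is the lowest gene in the Sik3, Map2 and Mapt pairs, at −0.49, −0.58 and −0.41, and no member is called in the tdTomato pair.

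The pairs differed in how far the other members were alike, as the plot of pair differences shows. In the Sik3 pair Smg6 was the only member called, 2.22% beside 2.61% of all genes (1.52% higher, 1.09% lower), with 11 members at an unadjusted p under 0.05. The 95% intervals of the members reached 0.13 to either side in the median there, and the widest bounds were −0.59 and 0.30. The Map2 pair had 12 members higher and 7 lower under crRNA 3 than under crRNA 1, 42.2% beside 35.8% (21.3% higher, 14.5% lower), and 10 and 10 after rescaling. In this pair 7 of 10 sympathoadrenal markers were higher too (median 0.38, beside 0.02 for all genes), with summed levels of 997 to 1023 FPKM under crRNA 3 and 933 to 963 FPKM under crRNA 1, and their part in the members' differences was not tested. Exosc2 differed most upward, with 95.4, 92.7 and 106 FPKM under crRNA 3 and 69.2, 71.6 and 78.7 FPKM under crRNA 1 (0.42, 95% interval 0.33 to 0.51, adjusted p = 8.27e-08). Its libraries did not overlap. Exosc4 (0.37), Cnot11 (0.36), Ddx6 (0.36) and Smg8 (0.34) were higher too, and Dis3l2 (−0.33), Dis3l (−0.27) and Upf3b (−0.25) lower.

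For the Mapt pair 5 members were higher and 3 lower under crRNA 6 than under crRNA 4, 17.8% beside 7.46% (4.48% higher, 2.98% lower). Ddx6 differed most upward, with 23.6, 22.2 and 22.5 FPKM under crRNA 6 and 18.6, 19.0 and 17.5 FPKM under crRNA 4 (0.30, 95% interval 0.17 to 0.43, adjusted p = 0.00474), again without overlap. Exosc2 (0.22), Exosc4 (0.24), Smg8 (0.26) and Edc3 (0.21) were higher in this pair as well, and Upf3b (−0.21) and Xrn2 (−0.15) lower. Clk3, whose exons overlap Edc3, averaged 36.5 FPKM over the WT libraries against 15.7 FPKM for Edc3, and shared reads could not be told apart. The count of 8 fell to 3 without Mapt crRNA 4 replicate 1, to 4 without its replicate 3, and to 5 without any other library of the pair. In the tdTomato pair limma called 0 members, beside 0.0506% of all genes (0.00844% higher, 0.0422% lower), and 8 members had an unadjusted p under 0.05. Differences ran from −0.43 to 0.30 and the 95% intervals reached 0.27 to either side in the median, with bounds of −0.81 and 0.96 at the widest.

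Rbfox3 crRNA 5 tests the same machinery in the other experiment set, against its own NT libraries. Of 5 SMG genes 1 rose and 3 fell (median −0.29), and of 4 UPF genes 2 fell, where 25.7% of all genes were called. Smg6 had 9.48, 10.5 and 10.3 FPKM under Rbfox3 crRNA 5, against 15.1, 16.7 and 15.8 FPKM in the NT libraries of the N set, without overlap (−0.62, SE 0.048, adjusted p = 1.30e-09). Smg5 had 55.5, 54.3 and 53.7 FPKM, against 64.2, 68.4 and 68.3 FPKM (−0.29, SE 0.045, adjusted p = 3.01e-05). Upf3a had 56.6, 50.5 and 46.9 FPKM, against 66.5, 62.1 and 64.2 FPKM (−0.32, SE 0.053, adjusted p = 8.02e-05). All libraries of Rbfox3 crRNA 5 were lower in these genes.

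Smg9 fell under Rbfox3 crRNA 5, with 15.2, 17.3 and 16.5 FPKM against 20.1, 23.5 and 22.1 FPKM (−0.41, SE 0.064, adjusted p = 4.93e-05). Smg8 was the only member that rose, with 12.8, 13.3 and 11.7 FPKM against 9.43, 10.5 and 10.6 FPKM (0.29, SE 0.070, adjusted p = 0.00343). The partners SMG8 and SMG9 thus had RNA levels that moved apart, with no overlap in either gene. Pan3 (−0.25), Xrn2 (−0.23), Pan2 (−0.23), Dcps (−0.22), Cnot7 (−0.18) and Upf1 (−0.15) fell too, and no gene of the exosome core (0 of 8) or of the exosome nuclease group (0 of 4) passed limma's test, where 1 core gene was higher and 1 core gene and 1 nuclease gene lower at an unadjusted p under 0.05.

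Whether the effects of the Rbfox3 crRNAs differed, each against its own NT libraries, was tested as the difference of the effects (crRNA 5 minus crRNA 3). For 4 members it passed, 1 higher and 3 lower, or 8.89% beside 5.51% of all genes (1.95% higher, 3.57% lower). Exosc2 had 149, 158 and 146 FPKM under crRNA 5 and 161, 148 and 158 FPKM in its NT libraries, but 87.7, 92.7 and 94.4 FPKM under crRNA 3 and 116, 111 and 113 FPKM in its own. The fall under crRNA 3 had no counterpart under crRNA 5, and the effects differed by 0.26 (SE 0.060, adjusted p = 0.0110). Cnot7 (−0.29, adjusted p = 0.00350), Cnot6l (−0.34, adjusted p = 0.00953) and Smg9 (−0.38, adjusted p = 0.0148) differed the other way. For Smg6 the difference of the effects was −0.03 (95% interval −0.17 to 0.11, adjusted p = 0.847).

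Spacer and experiment set changed together in that comparison and cannot be told apart. The sets themselves differed in NT cells: 17 members were higher and 6 lower in the NT libraries of the N set than in those of the WT set, 51.1% beside 46.4% of all genes, of which 26.5% were higher and 19.9% lower (14 and 8 members after rescaling). Dis3l2 had 3.32, 3.92 and 3.89 FPKM in the N set, against 6.01, 6.73 and 6.08 FPKM in the WT set (−0.65, SE 0.098, adjusted p = 9.42e-06). Ddx6 had 25.4, 29.0 and 30.2 FPKM, against 19.4, 22.1 and 19.6 FPKM (0.53, SE 0.067, adjusted p = 9.47e-07). Exosc2 had 161, 148 and 158 FPKM, against 116, 111 and 113 FPKM (0.41, SE 0.045, adjusted p = 1.29e-07). The sets did not overlap in any of these genes. Smg6 differed by −0.08 between the sets (adjusted p = 0.182), or −0.12 after rescaling (adjusted p = 0.0438). The markers moved as well, with sympathoadrenal sums of 1274 to 1322 FPKM in NT libraries of the N set and 951 to 979 FPKM in those of the WT set, and their part in these differences was not tested. A change of a member between a crRNA and NT is therefore read here against NT libraries of its own set. Values with all 6 NT libraries are printed as an alternative that mixes the sets.

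In the tdTomato line, which was measured in a table of its own, decay genes of several roles fell. In the mean of both tdTomato crRNAs, 13 of the 45 genes fell and none rose in limma's test (2 were higher at an unadjusted p under 0.05), or 28.9% of members beside 19.6% of all 11853 genes tested (8.32% higher, 11.3% lower). The median log2 change was −0.18 over the members and −0.10 over all genes. By role, 6 of 10 CCR4-NOT genes, both 5′-3′ exonucleases, 2 of 5 SMG genes, and 1 each of the exosome core, the UPF genes and the PAN2-PAN3 and PARN group fell, and none of the 9 decapping genes or the 4 exosome nuclease genes passed in limma, where 0 decapping genes and 1 nuclease gene were lower at an unadjusted p under 0.05. With rescaled FPKM the counts were 2 higher (Exosc4 and Upf3a) and 5 lower (Cnot1, Cnot10, Cnot2, Cnot4 and Xrn2), and rescaling moved the median of all genes by 0.08. The shares of all genes above are those before rescaling and cannot be set beside the rescaled counts. Without NT replicate 1, 2 or 3 the count of 13 was 4, 6 or 3.

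Xrn2 fell most. It had 44.0, 43.1 and 49.8 FPKM under tdTomato crRNA 7 and 43.4, 44.0 and 42.0 FPKM under crRNA 4, against 80.9, 61.9 and 68.2 FPKM in the NT libraries. Every targeting library was lower, and the mean log2 change was −0.65 (SE 0.090, adjusted p = 0.00154). Xrn2 lies on chromosome 2 from 147012996 to 147078000. Cnot2, a subunit of the NOT module (chromosome 10, 116485161 to 116581511, minus strand), had 55.1, 60.7 and 58.2 FPKM under crRNA 7 and 49.5, 48.6 and 43.5 FPKM under crRNA 4, against 79.6, 79.3 and 70.7 FPKM (−0.54, SE 0.076, adjusted p = 0.00161). Its groups did not overlap either.

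Cnot10 (chromosome 9, 114585878 to 114640184, minus strand) had 18.1, 19.7 and 25.2 FPKM under crRNA 7 and 15.9, 19.98 and 22.3 FPKM under crRNA 4, against 26.9, 26.8 and 31.4 FPKM in the NT libraries (−0.49, SE 0.11, adjusted p = 0.0129). Parn, which trims poly(A) tails (chromosome 16, 13537960 to 13668170, minus strand), had 7.05, 5.35 and 6.05 FPKM under crRNA 7 and 6.81, 9.69 and 8.89 FPKM under crRNA 4, against 9.81, 11.6 and 11.6 FPKM (−0.58, SE 0.14, adjusted p = 0.0184). In both genes the targeting libraries were all lower, though for Parn the highest under crRNA 4 came close to the lowest NT library. Parn lost its call after rescaling, without the series term and without any 1 NT library, with an adjusted p of up to 0.0790, and Cnot10 lost it without the series term and without NT replicate 1 or 3, with up to 0.0831.

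Xrn2 and Cnot10 had also fallen in the mean of the 7 crRNAs of WT cells. The other falls in the tdTomato mean were Exosc5 (−0.47), Xrn1 (−0.45), Smg1 (−0.45), Cnot4 (−0.42), Cnot1 (−0.42), Upf2 (−0.32), Cnot7 (−0.30), Cnot6 (−0.27) and Smg5 (−0.24). Of these, Exosc5, Upf2 and Smg5 had fallen in WT cells as well, and Cnot6 had risen there. Smg6 did not pass the test, with 6.56, 9.29 and 8.57 FPKM under crRNA 7 and 8.33, 11.3 and 8.00 FPKM under crRNA 4, against 11.5, 12.2 and 10.0 FPKM in the NT libraries (−0.37, SE 0.14, adjusted p = 0.0940). Its ranges overlapped. Upf3a, lower under the crRNAs of WT cells, had 39.3, 52.6 and 41.6 FPKM under crRNA 7 and 44.7, 50.3 and 52.8 FPKM under crRNA 4, against 31.6, 45.2 and 41.4 FPKM (0.25, adjusted p = 0.0753). The tdTomato line and WT cells were not tested against each other.

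**Figure D5:**
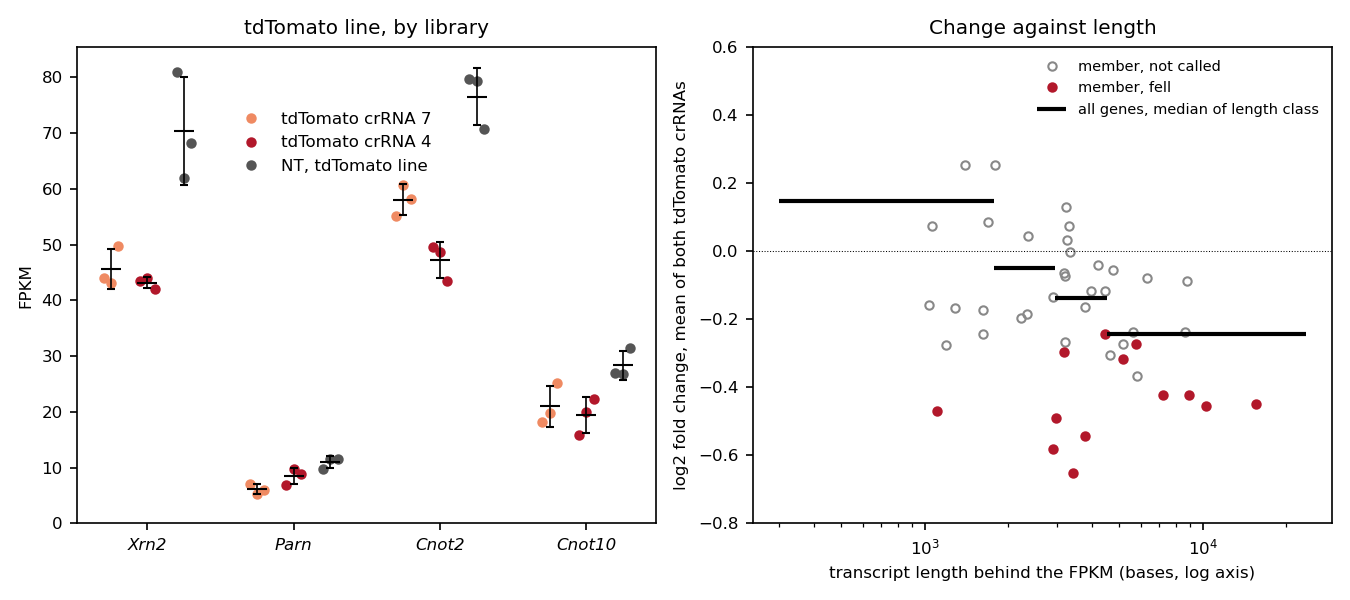
Left, FPKM of Xrn2, Parn, Cnot2 and Cnot10 in each library of the tdTomato line (points) with mean ± SD (n = 3). Right, log2 change of each member in the mean of both tdTomato crRNAs against the transcript length behind its FPKM (log axis), with black bars for the median of all genes in each of 4 length classes of equal size, which runs through 0.15, −0.05, −0.14 and −0.24.

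Single crRNAs gave part of these falls. Under tdTomato crRNA 7 the 12 genes were Parn (−0.79), Xrn2 (−0.61), Cnot4 (−0.45), Cnot10 (−0.44), Cnot1 (−0.42), Upf1 (−0.40), Cnot2 (−0.40), Upf2 (−0.36), Exosc10 (−0.36), Smg5 (−0.34), Cnot6 (−0.33) and Cnot7 (−0.28). Under crRNA 4 the 5 genes were Cnot2 (−0.69), Xrn2 (−0.69), Cnot10 (−0.55), Cnot1 (−0.43) and Cnot7 (−0.32). Rescaling, which moved the median of all genes under crRNA 7 by 0.12, left 4 calls for crRNA 7, and for crRNA 4 it gave 2 genes higher (Exosc2 and Exosc4) and 4 lower. With 1 library left out, the count was 2 without crRNA 7 replicate 1, 6 without crRNA 7 replicate 2, and 5, 4 and 6 without NT replicates 1, 2 and 3. For crRNA 4 it was 2, 3 and 3 without crRNA 4 replicates 1, 2 and 3, and 2 and 3 without NT replicates 1 and 3. With a block for the library numbers, the count for crRNA 7 was 9 rather than 12. The criterion for paired libraries was met for crRNA 7, but that check could not separate pairing from the library series.

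Transcript length moved with the changes in the tdTomato line. The lengths behind the FPKM values, recovered as those at which a gene's values are whole reads in every library, had a median of 3308 bases over the members and 2941 bases over the 11640 tested genes for which a length was found. From the shortest to the longest of 4 length classes of about equal size, the median log2 change in the mean of both crRNAs was 0.15, −0.05, −0.14 and −0.24, and 3.44%, 8.00%, 13.5% and 19.8% of genes fell. Of the members, 1 of 9, 1 of 6, 5 of 16 and 6 of 14 fell in these classes. Spearman's rho of change and length was −0.29 across the members and −0.41 across all genes, as a description of genes that share their libraries. In the mean of the 7 crRNAs of WT cells it was 0.15 and 0.13. Xrn2 and Cnot2, with 3428 and 3768 bases, lie in the third class, whose median was −0.14. The part of length in the members' falls was not tested.

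Other genes of the same pathways, from lists beside the 45, are read here beside the 50% of all genes called in the mean of the 7 crRNAs. Of 13 exosome cofactors 2 rose and 1 fell (median 0.02), led by Ttc37, a scaffold of the cytoplasmic Ski complex (0.37, adjusted p = 1.26e-06). In the tdTomato mean Ttc37 fell instead (−0.45, adjusted p = 0.0401 by limma). Of 26 adaptors of deadenylation and poly(A)-binding proteins, 6 rose and 5 fell (median 0.04). Ythdf2, which recruits CCR4-NOT to m6A-marked RNA, fell by 0.34 (adjusted p = 5.02e-07) and the poly(A)-binding protein gene Pabpc4 by 0.38 (adjusted p = 2.13e-06). Btg2 rose by 0.28 (adjusted p = 5.81e-04 by limma) and Samd4 by 0.21 (adjusted p = 0.0285). Of 14 exon junction complex and NMD cofactors 2 rose and 4 fell (median −0.04), with Dhx34 at 0.38 (adjusted p = 1.68e-04) and the release factor Etf1 at −0.27 (adjusted p = 1.44e-07). Among 11 genes of no-go decay and ribosome quality control 2 rose and 2 fell (median −0.02). Pelo, the ribosome rescue factor, rose by 0.34 (adjusted p = 1.16e-05), and its partner Hbs1l fell by 0.22 (adjusted p = 2.12e-04).

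Pelo also rose and Hbs1l fell under Rbfox3 crRNA 5 (0.42 and −0.20), and Pelo rose in the tdTomato mean (0.34). Of 12 decapping cofactors, 4 rose and 2 fell in the mean of the 7 crRNAs, and 3 rose and 0 fell in the tdTomato mean (median 0.12, beside −0.10 for all genes), with 1 lower at an unadjusted p under 0.05 in limma. Lsm7, a subunit of the LSM ring that binds deadenylated ends, had 31.7, 45.5 and 33.2 FPKM under tdTomato crRNA 7 and 35.0, 38.3 and 34.4 FPKM under crRNA 4, against 20.3, 21.2 and 12.1 FPKM in the NT libraries (1.04, adjusted p = 0.00475). It had 28.03, 30.2 and 30.4 FPKM under Rbfox3 crRNA 5, against 13.9, 18.0 and 18.1 FPKM (0.82, adjusted p = 4.41e-05). In both settings the libraries did not overlap. The part of transcript length in the rise of Lsm7 in the tdTomato line was not tested.

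Of 8 genes of histone mRNA 3′ end formation and uridylation, 3 rose and 1 fell in the mean of the 7 crRNAs, and of 7 endoribonuclease genes 2 fell and 0 rose by limma, or at an unadjusted p under 0.05. The RNA-binding protein gene G3bp1 of that list fell in the mean of the 7 crRNAs (−0.16, adjusted p = 1.48e-05), under Rbfox3 crRNA 5 (−0.27, adjusted p = 2.56e-06) and in the tdTomato mean (−0.47, adjusted p = 0.00233).

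A list of 12 transcripts known as NMD substrates was read beside the NMD factors. In the mean of the 7 crRNAs, where 50% of all genes were called, 3 rose and 4 fell (median −0.03). Under Rbfox3 crRNA 5, where 25.7% of all genes were called, 6 rose and 4 fell (median 0.11). In the tdTomato mean, where 8.32% of all genes were higher and 11.3% lower, 8 rose and 1 fell (median 0.52, beside −0.10 for all genes). Changes differed with transcript length there, and the median of all genes in the shortest length class was 0.15. Gas5, a snoRNA host transcript, rose by 0.40 in the mean of the 7 crRNAs (adjusted p = 6.46e-09), and the growth arrest gene Gadd45a by 0.51 (adjusted p = 7.43e-08). The stress factor gene Atf3 fell by 0.71 (adjusted p = 9.66e-12) and Snhg12 by 0.28 (adjusted p = 8.74e-04 by limma). Gadd45b had 114, 114 and 112 FPKM under Rbfox3 crRNA 5, against 62.2, 54.8 and 64.5 FPKM (0.91, adjusted p = 2.73e-10).

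In the tdTomato line Gadd45b had 61.8, 99.2 and 102 FPKM under crRNA 7 and 80.7, 91.5 and 98.7 FPKM under crRNA 4, against 37.3, 37.7 and 37.8 FPKM in the NT libraries (1.21, adjusted p = 1.38e-04). Snhg1, another snoRNA host, had 801, 1030 and 1012 FPKM under crRNA 7 and 871, 991 and 1060 FPKM under crRNA 4, against 503, 607 and 584 FPKM (0.76, adjusted p = 1.84e-05). All targeting libraries were higher in both genes. Ddit3, a stress transcription factor gene, fell by 0.25 there (adjusted p = 0.0161) and by 0.62 under Rbfox3 crRNA 5 (adjusted p = 3.39e-09). Many of these transcripts also respond to growth arrest and stress, and the part of NMD or of transcript length in their levels was not tested.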

How the data were processed

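Poly(A) RNA of N2a cells was sequenced as paired-end reads after Trizol extraction and a VAHTS mRNA-seq kit. The authors used FastQC and Trim Galore on the reads, Subread for alignment to mm10 and featureCounts for counts per gene, and deposited FPKM values, on which no count model was run here. Tool versions, annotation and strand setting: not given in the sources used here.

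Genes were kept at mean FPKM ≥ 1, targets always, and fitted in limma 3.58.1 (R 4.3.3) on log2(FPKM + 0.5), with a mean-variance trend, all libraries of a table in 1 fit, the library series (LDK, LDL, LDM) as covariate and 2-sided Benjamini-Hochberg adjustment over all genes tested, at 0.05. Changes on this scale understate those of low genes. The steps were tested on simulated data. Members and lists were chosen with earlier results of these data known. Values per library go with the 6 largest changes each way in the mean of the 7 crRNAs, the 4 each way in Rbfox3 crRNA 5 and the tdTomato mean, the largest each way per pair, and members called in at least 8 of 10 crRNA comparisons. The genes named for the NT sets and for the difference of the Rbfox3 effects were chosen after their values were seen. Genes named from other lists are among the 2 largest each way in a comparison, and not all of these are named.

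The library names carry numbers that recur across groups, and whether these pair libraries was checked. For tdTomato crRNA 7 the deviations of same-numbered libraries correlated at 0.292, 0.119 and 0.127, above the criterion of 0.1 in each, and for no other comparison with NT. Deviations were taken from group means without removing the library series. A shift shared by a series therefore raises these correlations too, and the check cannot tell it from pairing. Reads per library were recovered from FPKM steps of genes with 1 annotated transcript, and each gene's length as the shortest that gave whole reads in all libraries, within 0.1 reads, which was found for all 45 genes. Coordinates and transcripts are from GENCODE M21 on mm10 (GRCm38).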

Additional observations from a re-analysis of the deposited data

Results flagged for a closer look

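For 4 of the 45 genes the effect of Rbfox3 crRNA 5, against the NT libraries of the N set, differed from that of Rbfox3 crRNA 3, against those of the WT set, by a test of the difference itself in limma. Exosc2 differed by 0.26, Cnot7 by −0.29, Cnot6l by −0.34 and Smg9 by −0.38 on the log2 scale. Cnot7 had 70.5, 75.5 and 69.8 FPKM under crRNA 5 and 84.4, 79.4 and 80.9 FPKM in its NT libraries, and 69.7, 71.7 and 72.03 FPKM under crRNA 3 and 65.5, 64.6 and 67.2 FPKM in its own. Zdhhc2, whose exons overlap Cnot7, averaged 44.7 FPKM over the WT libraries against 68.8 FPKM for Cnot7, and shared reads could not be told apart. Cnot6l had 10.0, 10.5 and 10.1 FPKM under crRNA 5 and 10.9, 11.6 and 11.2 FPKM in its NT libraries, and 13.1, 12.8 and 13.4 FPKM under crRNA 3 and 11.77, 11.07 and 11.02 FPKM in its own. Smg9 had 15.2, 17.3 and 16.5 FPKM under crRNA 5 and 20.1, 23.5 and 22.1 FPKM in its NT libraries, and 20.2, 19.9 and 17.8 FPKM under crRNA 3 and 18.9, 19.5 and 20.5 FPKM in its own. Spacer and set cannot be told apart in these differences.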

How the results depend on the processing

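Of 286 alternatives to the member counts of 18 comparisons, 258 stayed within 1.5 times the value given. Of 684 alternatives to 30 named member results, 669 kept direction and call, 15 lost the call and 0 reversed. With the groups compared alone in the fit (fewer libraries), 5 members were called in the Mapt pair, 12 between the NT sets, 1 for the difference of the Rbfox3 effects and 7 under tdTomato crRNA 7. In that setting Cnot6l (adjusted p = 0.0574), Exosc2 (0.0731) and Smg9 (0.0902) lost the difference of effects. Without the series term the tdTomato counts were 2 for crRNA 4, 2 for crRNA 7 and 3 for their mean, and with rescaled FPKM they were 4 for crRNA 7 and 7 for the mean. The cause was not tested.

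Leaving out 1 library gave 16 to 21 members for Sik3 crRNA 1, 16 to 19 for Sik3 crRNA 8, 19 to 22 for Map2 crRNA 1, 11 to 16 for Map2 crRNA 3, 13 to 18 for Mapt crRNA 4, 12 to 15 for Mapt crRNA 6, 11 to 13 for Rbfox3 crRNA 3, 9 to 13 for Rbfox3 crRNA 5 and 15 to 21 for the mean of the 7 crRNAs. It gave 16 to 19 for the Map2 pair, 3 to 5 for the Mapt pair, 18 to 23 for the NT sets and 4 to 6 for the difference of effects. In the tdTomato line it gave 2 to 4 for crRNA 4, 2 to 8 for crRNA 7 and 3 to 12 for the mean, 0 for the pair, and 1 for the Sik3 pair of WT cells.

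The replicate block gave 9 members for tdTomato crRNA 7, 11 for the tdTomato mean and 5 for crRNA 4, 21 for the mean of the 7 crRNAs, 11 for Rbfox3 crRNA 5 and 9 for the Mapt pair, and changed no call of a named member. For the other comparisons with NT the criterion for paired libraries was not met. A block could not be estimated between the NT sets. The tdTomato line had fewer libraries (9) and fewer reads in each, and the part of either in the width of its intervals was not tested.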
